A study of Rattus norvegicus with 6 samples.

Results

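A small set of circular RNAs (circRNAs) of rat lung passed the array's detection flag in only one of the study's 2 oxygen groups. Of 14145 circRNA probes, 36 were flagged as well above background on all 3 normoxia arrays and on none of the 3 hypoxia arrays (0.255% of the probes), and 4 showed the opposite pattern (0.0283%). These 40 were chosen by that flag, which Agilent's Feature Extraction software sets to 0 or 1 for each spot, so the difference in the flag between the groups is the selection itself and carries no test. The name "detected in one oxygen group only" depended on the flag used. By the software's looser flag, for a signal positive and significant over background, 39 of the 40 were positive on all 6 arrays. So were 89.6% of all circRNA probes, and nothing particular to the members is read from this count. Because the name depended on the flag, the 40 are called the normoxia-flagged and the hypoxia-flagged circRNAs here.

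The samples were lung tissue of male Rattus norvegicus aged 6 weeks, kept for 21 days either in normoxia (3 arrays) or at 10% oxygen in a ventilated chamber (3 arrays), a treatment used to induce pulmonary arterial hypertension. All lungs were perfused with PBS and total RNA was taken with Trizol. It was then digested with RNase R, amplified from random primers, and given the dye Cy3. Both groups thus went through the same enrichment step for circular RNA, but how far it went in each sample was not measured here. No strain or allele is named in the labels. Samples carry the numbers 1 to 3 in either group, and whether these are separate animals is not said, so the spread between arrays may be partly technical. In whole lung, fewer cells of a type and less RNA per cell cannot be told apart. The arrays carry a linear probe for 0 of 10 lung marker genes looked for, surfactant proteins among them, so the tissue label was not checked by marker.

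A circRNA is made when a downstream splice donor is joined back to an upstream acceptor, which closes the exons between them into a ring. Having no free ends, the ring withstands RNase R, an exonuclease that digests linear RNA, and it is usually much scarcer than the messenger RNA of the same gene. Such arrays measure a circRNA with a probe for its junction. Long exposure to low oxygen thickens the walls of the small pulmonary arteries of rats, and circRNAs have been studied there as possible regulators of vascular cell growth. None of the 40 identifiers matched a gene in the RefSeq table, and the files pair no circRNA with a host gene or a probe sequence, so the members are given by their probe identifiers and no gene function or sequence is described.

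All 6 arrays lay on a single slide and carried one scan time. Between 11287 and 12266 circRNA probes per array were well above background, and 10911 were so on all 6. Hypoxia 2 and hypoxia 3 lay in row 2 of the slide and the other 4 arrays in row 1. With 3 arrays a group, their number limits how precise each mean can be.

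The flag acted as a single cutoff on each array. On each of the 6 arrays every flagged circRNA probe had a higher background-subtracted signal than every unflagged one. The lowest flagged signal was 6.15, 8.73 and 8.16 intensity units on normoxia 1, 2 and 3, and 8.68, 10.8 and 8.58 on hypoxia 1, 2 and 3. The processed signal, which the software derives from the background-subtracted one, had a floor of its own: its lowest value among flagged circRNA probes. Relative to the brightness of the array, given as log2 of the processed signal minus the array's 75th percentile over non-control probes, this floor stood at -4.05, -4.43 and -3.58 in normoxia and at -4.34, -4.06 and -3.94 in hypoxia. Normoxia 3, with the lowest 75th percentile (92.6 units) and the fewest flagged circRNAs, had the highest floor on this relative scale, and normoxia 2 the lowest.

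Both sets of circRNAs were dim. On the arrays where they were flagged, the normoxia-flagged circRNAs had processed signals from 6.32 to 29.6 units with a median of 11.2, and on the hypoxia arrays from 2.19 to 10.6 units with a median of 7.01. Their mean height in normoxia had a median of -3.39 on the log2 scale relative to the 75th percentile and ranged from -3.94 to -2.31, with a median SD over the 3 arrays of 0.38. The circRNAs flagged on all 6 arrays had a median of -0.76 on the normoxia arrays, and 0.577% of them lay at or below the median height of the normoxia-flagged set. The brightest normoxia-flagged circRNA reached the level of the lowest 15.2% of them.

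The 4 hypoxia-flagged circRNAs had processed signals from 9.54 to 17.1 units on the hypoxia arrays and from 1.97 to 9.53 units on the normoxia arrays. Their mean height in hypoxia ran from -3.70 to -3.28 on the log2 scale relative to the 75th percentile.

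Negative control spots gave the measured background. Of the 77 such spots on each array 0 were well above background, and between 1 and 4 were positive and significant. Their highest background-subtracted signal was between 2.12 and 4.62 units across arrays. On the 3 hypoxia arrays, 101 of the 108 spots of the normoxia-flagged circRNAs exceeded every negative control spot of the same array in background-subtracted signal. For the hypoxia-flagged circRNAs, 11 of 12 normoxia spots did so. The group without the flag thus had a measured signal for most of these probes, below the cutoff but above the negative controls. The share of all circRNA probes above every negative control is not given here, and 89.6% of them were positive and significant on all 6 arrays. Nothing particular to the members is therefore read from these counts.

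Distance from the cutoff was small. Divided by the cutoff of its own array, the background-subtracted signal of the normoxia-flagged circRNAs had a median of 1.43 on the normoxia arrays and 0.754 on the hypoxia arrays. In 24 of the 36, at least 1 array lay within 10% of its cutoff. On all 3 normoxia arrays 1 of the 36 was at 2 times the cutoff or more. The array on which a normoxia-flagged circRNA came closest to losing its flag was normoxia 3 in 24 cases and normoxia 2 in 12, and the hypoxia array on which it came closest to gaining one was hypoxia 1 in 22 cases. Among the hypoxia-flagged circRNAs, 3 of 4 had an array within 10% of its cutoff. The rule takes only circRNAs with signals on both sides of the cutoff. The share of other circRNA probes this close to it is not given here. Nothing particular to the members is therefore read from these counts.

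Some circRNAs just inside and just outside the rule were very close to the cutoff, while most near misses were farther from it. ASCRPR004750, singled out for this after its values were seen, had on normoxia 3 the lowest flagged background-subtracted signal of that array, a ratio to the cutoff of 1.0. ASCRPR011262, singled out in the same way, reached 0.999 of the cutoff on hypoxia 2. Just outside stood 73 circRNAs flagged on the 3 normoxia arrays and 1 hypoxia array, with a lowest ratio on that array of 1.01 and a median of 1.29, and 98 flagged on 2 normoxia arrays and no hypoxia array, with a highest ratio on the missing array of 0.9998 and a median of 0.636. Of the 73, 51 were flagged on hypoxia 1, and of the 98, 87 lacked the flag on normoxia 3. In the other direction 78 were flagged on the 3 hypoxia arrays and 1 normoxia array, which was normoxia 2 in 66 cases, with a lowest ratio of 1.08 and a median of 1.56. A further 27 were flagged on 2 hypoxia arrays and no normoxia array, with a highest ratio of 0.958 and a median of 0.708.

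ASCRPR007041 was the brightest of the normoxia-flagged circRNAs. Its processed signal was 20.7, 22.1 and 29.3 units on normoxia 1, 2 and 3 and 7.15, 7.70 and 4.46 units on hypoxia 1, 2 and 3. The groups did not overlap, and every normoxia value was at least 2.62 times its cutoff, while the highest hypoxia value was at 0.791 of its cutoff. Its log2 signal relative to the 75th percentile averaged -2.31 ± 0.65 (SD, n = 3) on the normoxia arrays and -4.59 ± 0.21 (SD, n = 3) on the hypoxia arrays. Because the hypoxia spots were not well above background, the change is given as a bound: normoxia was at least 3.50-fold higher. This bound, used throughout, starts from the mean of the brighter group. For each array of the dimmer group it takes the probe's own processed signal or the floor of the processed signal, whichever was higher. It holds for the means in the scaled processed signal only, and it allows neither for measurement error nor for the spread between arrays.

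ASCRPR000882 had the second highest mean. Its processed signal was 29.6, 13.4 and 18.9 units on normoxia 1 to 3 and 8.99, 5.52 and 7.39 units on hypoxia 1 to 3, so that the normoxia arrays differed more among themselves than the hypoxia arrays did. On the scaled log2 axis the normoxia mean was -2.59 ± 0.98 (SD, n = 3) and the hypoxia mean -4.39 ± 0.46 (SD, n = 3). Normoxia was at least 2.76-fold higher, and on hypoxia 1 the spot lay at 0.959 of the cutoff.

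ASCRPR005744, singled out after its values were seen, had the largest measured difference of the set. Its processed signal was 15.1, 24.1 and 13.0 units on normoxia 1 to 3 and 3.55, 2.78 and 2.70 units on hypoxia 1 to 3. Once scaled, the normoxia arrays were nearly equal: the mean log2 signal relative to the 75th percentile was -2.81 ± 0.04 (SD, n = 3), against -5.65 ± 0.23 (SD, n = 3) for hypoxia. It was the 1 circRNA of the 36 that stayed under 0.5 of the cutoff on all 3 hypoxia arrays, and normoxia was at least 2.47-fold higher.

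ASCRPR006239, also singled out, was the 1 member without a positive and significant signal everywhere. It read 22.8, 11.02 and 10.5 units on normoxia 1 to 3, and 2.34, 7.76 and 6.13 units on hypoxia 1 to 3; the spot without that flag was on hypoxia 1. The other 119 of the 120 member spots that were not well above background were positive and significant. At the other end, ASCRPR004844, the dimmest, read 6.32, 9.03 and 7.91 units on normoxia 1 to 3 and 7.20, 8.38 and 6.28 units on hypoxia 1 to 3. In unscaled units its groups overlapped. The bound was 1.13-fold once scaled, while in the authors' deposited log2 values normoxia exceeded hypoxia by 0.0060.

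Over the 36 normoxia-flagged circRNAs the bound had a median of 1.65-fold and ran from 1.13-fold to 3.50-fold. It was 1.5-fold or more for 25 and 2-fold or more for 10, which were the 10 brightest. The bound starts from the mean of the brighter group, so its rise with brightness is partly built in. The share of all circRNA probes with such bounds is not given here, and nothing is read from these counts. On the log2 scale the median bound was 0.73. It was 0.19 in the authors' deposited values and -0.10 after normexp background correction of the spot medians. A negative bound no longer sets normoxia above hypoxia, and it does not show hypoxia to be higher. The measured log2 difference, normoxia minus hypoxia, had a median of 1.14 and a range from 0.44 to 2.84, beside a median of 0.05 over all circRNA probes and 0.16 over the 1780 flagged on 1 to 5 arrays. The scaled groups did not overlap for 32 of the 36, where 10.7% of all circRNA probes had normoxia arrays above all hypoxia arrays; since the rule used this contrast, nothing is read from the count. The software gives each processed signal an error, whose median was 17.2% of the signal on the normoxia arrays and 28.3% on the hypoxia arrays. For 10 of the 36 the lowest normoxia value less its error exceeded the highest hypoxia value plus its error, beside 1.12% of all circRNA probes; nothing is read from this count either.

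ASCRPR001891 was the brightest hypoxia-flagged circRNA. It read 17.1, 16.2 and 13.3 units on hypoxia 1 to 3 and 1.97, 9.53 and 2.80 units on normoxia 1 to 3. The hypoxia arrays were all higher, but normoxia 2 stood well above the other normoxia arrays and at 0.941 of its cutoff. The scaled log2 signal averaged -3.28 ± 0.08 (SD, n = 3) for hypoxia and -4.97 ± 0.77 (SD, n = 3) for normoxia, and hypoxia was at least 1.57-fold higher. It was the 1 hypoxia-flagged circRNA whose groups stood apart by more than the software's error, as did 1.27% of all circRNA probes with hypoxia higher. Nothing is read from this, since the rule used the contrast.

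ASCRPR010145 read 13.0, 10.99 and 12.5 units on hypoxia 1 to 3 and 6.07, 8.16 and 5.77 units on normoxia 1 to 3. Its spots on normoxia 1 and 2 stood at 0.987 and 0.974 of their cutoffs, and hypoxia was at least 1.30-fold higher. ASCRPR007029 read 12.8, 13.2 and 10.5 units on hypoxia 1 to 3 and 3.58, 6.66 and 6.00 units on normoxia 1 to 3, again with no overlap, and hypoxia was at least 1.30-fold higher. ASCRPR008033 read 13.5, 12.0 and 9.54 units on hypoxia 1 to 3 and 2.49, 7.36 and 6.99 units on normoxia 1 to 3. Its groups lay apart in these units but overlapped once scaled, since the dim array normoxia 3 then stood at -3.73 on the log2 scale, above hypoxia 2 at -3.80; hypoxia was at least 1.25-fold higher on average. ASCRPR010145, the second brightest, and ASCRPR001891 were named by brightness, and the other 2 because the set is so small. The scaled groups did not overlap for 3 of the 4, beside 8.68% of all circRNA probes with hypoxia above normoxia. Since the rule used this contrast, nothing is read from the count. The median log2 bound of the 4 was 0.38, and it was -0.025 in scaled spot medians without background subtraction. A negative bound sets no minimum on the increase. In those spot medians 3 of the 4 had a difference, hypoxia minus normoxia, of 0 or below. The folds given above as a minimum were computed in the scaled processed signal and do not carry over to those scaled spot medians.

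Spot medians without background subtraction showed how little light separated the groups. For the normoxia-flagged circRNAs the spot median ran from 32 to 59 units on the normoxia arrays, with a median of 40, and from 27 to 40 units on the hypoxia arrays, with a median of 35.5. Local background had a median of 20 units at the normoxia spots and 18 at the hypoxia spots. ASCRPR007041 had spot medians of 46, 54.5 and 59 units on normoxia 1 to 3 and of 38, 39 and 32.5 units on hypoxia 1 to 3. The groups did not overlap in unscaled spot medians for 17 of the 36, beside 2.15% of all circRNA probes with normoxia higher. The rule used this contrast on the same spots, so nothing is read from that count. The median fold, normoxia over hypoxia, was 1.14 and the largest 1.45, and for 1 of the 36 the unscaled difference was not above 0.

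For the hypoxia-flagged circRNAs the spot median ran from 36 to 44 units on the hypoxia arrays and from 28 to 39 units on the normoxia arrays. The groups did not overlap for 3 of the 4, beside 3.68% of all circRNA probes with hypoxia higher. Here too the rule used this contrast, and nothing is read from the count. The median fold, hypoxia over normoxia, was 1.21. This direction depended on the scaling. With each array's 75th percentile of the spot medians subtracted, 3 of the 4 had a difference, hypoxia minus normoxia, of 0 or below (median -0.02 on the log2 scale, against 0.27 unscaled), and the difference of the normoxia-flagged set, normoxia minus hypoxia, rose from 0.19 unscaled to 0.48. The scaling itself moved the median of all circRNA probes, normoxia minus hypoxia, from -0.15 to 0.14.

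The log2 values that the authors deposited held smaller differences than the scaled processed signal did. In them normoxia exceeded hypoxia by a median of 0.20 over the 36 normoxia-flagged circRNAs, with a range from 0.0060 to 0.52, and the groups did not overlap for 22, beside 8.91% of all circRNA probes with normoxia higher. Hypoxia exceeded normoxia by a median of 0.24 over the 4 hypoxia-flagged circRNAs, and 3 did not overlap, beside 10.1% with hypoxia higher. Groups that did not overlap in the scaled processed signal, the unscaled spot medians and the deposited values alike were found for 13 of the 36, beside 1.07% of all circRNA probes with normoxia higher, and for 3 of the 4, beside 1.56% with hypoxia higher. The rule used this contrast, and nothing is read from these counts.

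Sets of 3 arrays that mix the oxygen groups shared the flag too. In all, 299 circRNAs were flagged on exactly 3 arrays. The largest number, 85, were flagged on normoxia 1, normoxia 2 and hypoxia 1, and 44 on normoxia 2, hypoxia 2 and hypoxia 3; the 36 of the normoxia arrays were the next largest number among the 20 possible sets of 3 arrays. The other 18 sets held from 0 to 85 circRNAs with a median of 5.5, and 9 of them held more than the 4 of the hypoxia arrays. Normoxia 3 entered few of these patterns: the 9 other sets with it held at most 7, and of the 504 circRNAs flagged on 5 arrays, 282 lacked normoxia 3 and 3 lacked normoxia 2.

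The excess of normoxia-flagged over hypoxia-flagged circRNAs varied with the arrays and the detection rule used. Leaving out an array asks fewer arrays to meet the rule, so either count can only stay or rise. The circRNAs gained in this way are near misses of the kinds counted above. Without normoxia 2 the counts were 42 normoxia-flagged and 70 hypoxia-flagged, the other direction. Without normoxia 3 they were 123 and 4, without hypoxia 1 they were 87 and 14, and without normoxia 1 they were 41 and 16. Without hypoxia 2 they were 50 and 12, and without hypoxia 3 they were 44 and 13. In row 1 of the slide alone, where hypoxia 1 was the single hypoxia array, the counts were 86 and 68. The rule was looser there too. Within that row the median log2 difference of the 36, normoxia minus hypoxia 1, was 1.24; the rule used these same 4 arrays, so nothing is read from its direction.

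Another detection rule mostly chose other circRNAs. The positive and significant flag gave 24 in normoxia only and 5 in hypoxia only, of which 0 were among the 40. That 0 was fixed in advance, since 39 of the 40 carried this flag on all 6 arrays and ASCRPR006239 on 5. One relative cutoff shared by all arrays gave 54 and 9, with 20 and 2 of the members among them. A spot median above local background by over 2.6 background SDs gave 2 and 45, again the other direction, with 0 and 1 of the members among them.

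Position on the grid was a feature that the rule did not use. The array has 192 rows and 82 columns, and 12 of the 36 normoxia-flagged circRNAs (33.3%) lay in columns 70 to 82, which held 15.7% of all circRNA probes. Of the 10 brightest, 8 lay there. This band was picked after the positions had been seen, and its part in the result was not tested. The 12 circRNAs in the band were higher in normoxia by a median of 1.54 on the log2 scale. The 87 other circRNA probes next to them on the grid had a median difference of 0.15, and all circRNA probes of the band 0.03. The rule chose the 12 by this contrast but not their neighbours, so nothing is read from the gap. None of the 4 hypoxia-flagged circRNAs lay in the band, and no member carried an outlier flag on any array.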

How the data were processed

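The spot and background intensity values and the 0 or 1 flags were made by Agilent Feature Extraction 11.0.1.1, per the file headers, which name the build rn4; the processed signal is background-subtracted, and no scaling between arrays is recorded there. The authors also deposited log2 values whose scaling and background treatment are not given in the sources used here; limma is named in the submitters' processing notes with no role.

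Probes with control type 0 and names starting ASCRPR were counted by flag. Signals were set as log2 relative to the array's 75th percentile over non-control probes. Because the rule used the oxygen contrast, no test was run on it. In each direction the 2 members with the highest mean were to be named; others named are marked. The members and rules were chosen with earlier results of these data known. The counting rule was tested on simulated data. Python 3.11.15, pandas 2.3.3 and limma 3.58.1 (normexp, on spot medians, since the mean spot signal first planned for it was not used here) were used. The alternatives are given in the closing section.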

Additional observations from a re-analysis of the deposited data

How the results depend on the processing

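No paired analysis was possible, because no label says that a number ties samples across the groups. No model was fitted, since the rule used the oxygen contrast. The relative cutoff and slide row 1 were chosen after seeing the data, and the cause of each shift was not tested. Counts with an array left out, or in row 1, can only stay or rise, since fewer arrays must meet the rule. The normoxia-flagged count of 36 became 2 with spot medians 2.6 SDs above background, 109 with 1 hypoxia array allowed, 134 with 2 or 3 normoxia arrays, 2 with processed signals of at least 2 times the array's lowest flagged processed signal (not the background-subtracted cutoff), 17 and 22 with no overlap in spot medians or deposited values, 86 in row 1, and 41 to 123 with 1 array left out. The hypoxia-flagged count of 4 became 45, 82, 31 and 0 in the first 4 of these, 68 in row 1, 9 with one relative cutoff, and 4 to 70 with 1 array left out.

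Heights of -3.39 (normoxia) and -3.63 (hypoxia) became -3.87 and -4.14 with the percentile over probes flagged on all 6 arrays, 3.49 and 3.60 unscaled, -1.87 and -2.11 in spot medians, -1.36 and -1.20 after normexp (offset 50), and -1.78 and -1.83 in deposited values. The median log2 bound of 0.73 (normoxia) became -0.10 under normexp and 0.19 in deposited values. That of 0.38 (hypoxia) became 0.55 with quantile normalization, 0.74 unscaled, -0.025 in spot medians, 0.23 in deposited values and 0.18 to 0.60 with 1 array left out. The spot-median difference of the hypoxia-flagged set, -0.018 scaled, was 0.27 unscaled and 0.22 with quantile normalization. It was 0.015 without normoxia 1, 0.13 without normoxia 3, 0.065 without hypoxia 2 and -0.20 to 0.13 with 1 array left out. The difference of the normoxia-flagged set kept its sign in all 9 alternatives. The rule used this contrast on the same arrays, so nothing is read from the kept sign. Leaving out outlier spots changed neither count. Signals this near the cutoff limit every value.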
